A study of Mus musculus with 21 samples.

Results

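Collagen chain genes encode the polypeptides from which the collagens of the extracellular matrix are assembled. They were taken here as every row of the deposited count table whose symbol is Col, a type number, a lower-case a and a chain number, which gave 44 of 24054 rows. By type of collagen these were 11 fibrillar, 6 basement membrane, 9 fibril-associated (FACIT), 3 network-forming, 6 beaded filament, 2 multiplexin and 4 transmembrane chains, and 3 others. Expression was measured by mRNA sequencing of the left ventricle myocardium of C57BL/6J mice, with 21 libraries from 21 ear-tagged animals. The groups were TAC+PDE5A-I (5 animals with TAC surgery given sildenafil, an inhibitor of the cyclic GMP phosphodiesterase PDE5A), TAC+PDE9A-I (6 animals with TAC surgery given PF-04449613, an inhibitor of the cyclic GMP phosphodiesterase PDE9A), TAC (5 animals with the surgery and no drug) and Sham (5 animals with sham surgery and no drug). TAC, transverse aortic constriction, narrows the aorta and so overloads the left ventricle. Drugs were given for 4 weeks from 1 week after surgery, so every inhibitor library also carries TAC, and no group combines a drug with sham surgery. No source used here gives the doses, the vehicle, or the age and sex of the mice.

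Collagens are built as procollagen chains that are hydroxylated and wound into helical trimers in the endoplasmic reticulum, secreted, trimmed by proteinases and cross-linked outside the cell. In the heart, types I and III form the fibres between muscle cells and are made mainly by fibroblasts, while type IV forms the sheet of basement membrane around each cardiomyocyte and capillary. FACIT chains sit on the surface of fibres, type VI forms beaded filaments around cells, and the multiplexins join basement membranes to the fibres next to them. Added deposition of fibrillar collagen, or fibrosis, is a known feature of overloaded hearts.

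Library totals ran from 22.7 to 40.99 M expected counts, and all 44 genes together took 0.393 to 0.792% of the counts in TAC+PDE5A-I, 0.216 to 0.933% in TAC+PDE9A-I, 0.324 to 1.08% in TAC and 0.194 to 0.340% in Sham. TAC+PDE9A-I libraries 1 and 4 stood apart from all others on the second principal component of all tested genes, at -39.0 and -35.3, and had the highest share of the ribosomal RNA gene Rn45s, 0.326 and 0.416%. Counts of calls, chain ratios and the changes of Col1a1, Col3a1, Col4a1, Col6a6, Col8a1 and Col12a1 were also computed without both, and those values stand beside the results against TAC and between the inhibitors. The labelled tissue was checked against its defining markers. In every library of all groups 7 cardiomyocyte genes summed to 108287 to 188132 counts per M counts (CPM, after TMM scaling). The sum of 5 atrial genes was 40.9 CPM in TAC+PDE9A-I library 1, 15.9 CPM in TAC+PDE9A-I library 4 and 7.81 to 12.9 CPM in the others. A low-count filter kept 36 of the 44 genes, and 8 were too low to test. Since some chains passed the filter mainly through the groups in which they are high, the counts below describe the 36 and are no evidence about the 44.

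All 44 genes were located in the GENCODE M21 annotation of GRCm38, on 15 chromosomes, and 15 of them lie beside another collagen chain gene. Col4a1 and Col4a2 on chromosome 8 point away from each other and overlap by 22 bases at their starts, and Col4a4 and Col4a3 on chromosome 1 start 71 bases apart. Col4a6 and Col4a5 start 1308 bases apart on chromosome X. Col3a1 and Col5a2 face each other on chromosome 1 with 24614 bases between their ends. The 250 bases before the RefSeq start are shown for Col3a1, Col8a1 and Col11a1 (GRCm38.p6), as 1 fibrillar chain of the fibres, 1 network chain and 1 low fibrillar chain that all rose with TAC. They are written 5′ to 3′ on the gene's own strand, and capitals mark matches on either strand. The motifs searched, each on both strands, were the CCAAT box, the TATA motif TATAAA, the GC box GGGCGG, and the motif CAGAC, the last holding core letters bound by SMAD factors, and matches may overlap.
Col3a1 chr1:45311288-45311537 plus strand: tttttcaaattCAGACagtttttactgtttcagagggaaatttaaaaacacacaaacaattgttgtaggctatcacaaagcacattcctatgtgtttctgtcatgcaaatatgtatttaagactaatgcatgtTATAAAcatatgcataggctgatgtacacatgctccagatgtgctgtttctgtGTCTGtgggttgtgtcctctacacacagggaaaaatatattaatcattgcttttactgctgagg
Col8a1 chr16:57754738-57754987 minus strand: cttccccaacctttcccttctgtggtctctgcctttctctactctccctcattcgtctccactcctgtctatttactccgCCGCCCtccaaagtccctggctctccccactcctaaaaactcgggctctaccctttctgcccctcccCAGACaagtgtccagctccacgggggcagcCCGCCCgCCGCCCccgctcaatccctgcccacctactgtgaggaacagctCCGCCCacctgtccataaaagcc
Col11a1 chr3:114030290-114030539 plus strand: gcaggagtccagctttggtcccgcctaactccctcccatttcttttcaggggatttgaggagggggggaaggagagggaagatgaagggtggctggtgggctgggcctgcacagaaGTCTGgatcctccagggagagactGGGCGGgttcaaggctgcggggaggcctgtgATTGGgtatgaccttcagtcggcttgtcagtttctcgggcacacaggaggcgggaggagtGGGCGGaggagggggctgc
The Col3a1 stretch holds 1 TATAAA and 2 CAGAC, the Col8a1 stretch 4 GGGCGG and 1 CAGAC, and the Col11a1 stretch 1 CCAAT, 2 GGGCGG and 1 CAGAC. In the 250 bases before the start in each RefSeq window, CAGAC was found in 44.7% of 38 windows of 35 collagen chain genes and in 42.2% of all 32851 windows. The shares were 34.2 and 33.8% for CCAAT, 13.2 and 12.4% for TATAAA, and 57.9 and 32.7% for GGGCGG. These are matches of letters and were not tested as sites.

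TAC against Sham asks which collagen chains pressure overload changed. Of the 36 genes tested 22 rose and none fell, by edgeR's quasi-likelihood test with Benjamini-Hochberg adjustment over 14135 genes at an adjusted p under 0.05. Over all genes tested, 25.2% were called, 12.2% higher and 13.0% lower. The calls covered 6 of 9 fibrillar, 5 of 6 basement membrane, 5 of 6 FACIT, 2 of 2 network, 1 of 5 beaded filament, 2 of 2 multiplexin, 0 of 3 transmembrane and 1 of 3 other chains. The median log2 fold change was 0.99 over the 36 and -0.0013 over all genes, and 33 of the 36 were positive. By type the medians were 3.36 for network, 2.79 for FACIT, 1.79 for fibrillar, 0.98 for multiplexin, 0.82 for beaded filament, 0.73 for basement membrane and 0.17 for transmembrane chains. In 11 genes every TAC library was above every Sham library, and in 1 gene, Col6a6, every TAC library was below, against 8.52 and 8.0% of all genes. In bulk tissue, more cells of a type and more RNA per cell cannot be told apart.

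The count of 22 depended on single libraries, and the share of all genes called, 25.2% with every library, moved with it. Without TAC library 4 the count was 11 (12.6% of all genes), without TAC library 3 it was 13 (14.2%), and with Sham library 1, 3 or 4 left out it was 14 each time (17.2, 19.4 and 16.9%). With any other library left out it was 17 to 25 (18.0 to 31.2%), with 1 lower gene included when TAC library 2 or 5 was left out. Of the 22 calls, 11 were made under every alternative that tested the gene, 17 of them for each gene except Col9a2, which was tested in 16: Col1a2, Col5a2, Col8a1, Col8a2, Col9a2, Col11a1, Col12a1, Col14a1, Col16a1, Col18a1 and Col22a1. With only TAC and Sham in the fit, Col9a2 fell below the low-count filter and was not tested. The ear tags fall into numbers in the 100s, 500s and 600s, and what these series mark is not given. Sham had 3, 0 and 2 animals in the series and TAC had 2, 1 and 2. Within the 100s (2 TAC against 3 Sham) the median difference over the 36 genes was 0.73, and within the 600s (2 against 2) it was 0.88. With a model term for the series, 15 genes rose, against 19.0% of all genes called in either direction, and the calls of Col1a1, Col4a3, Col4a4, Col4a5, Col5a1, Col7a1 and Col15a1 were lost.

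**Figure D1:**
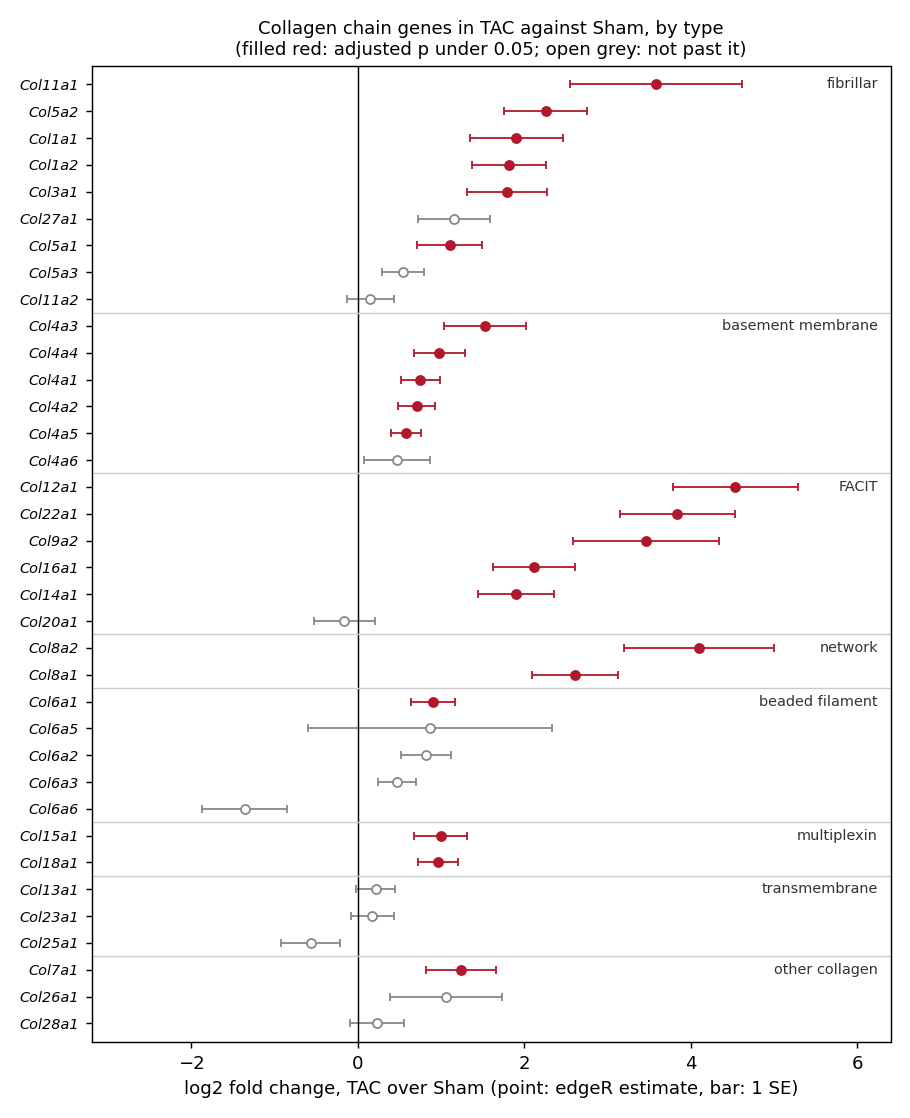
Log2 fold change of TAC against Sham (x axis) for the 36 collagen chain genes tested, grouped by type down the page. Points are edgeR estimates, bars 1 SE, and filled red points are the 22 genes called at an adjusted p under 0.05. Col12a1, at 4.53, has the highest value, and Col6a6, at -1.36, the lowest.

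Fibrillar chains form the load-bearing fibres. Col1a1, the major chain of type I collagen (ENSMUSG00000001506.10, chromosome 11, 94936224 to 94953042), had 231, 117, 446, 583 and 209 CPM in the TAC libraries, against 56.3, 85.3, 78.8, 96.9 and 107 CPM in the Sham libraries. All TAC libraries were above all Sham libraries, with TAC library 2 just above the highest Sham library (log2 fold change 1.90, SE 0.56, adjusted p = 0.0201). Its partner chain Col1a2 had 532, 267, 781, 1015 and 415 CPM in the TAC libraries, against 129.9, 178, 169, 173 and 205 CPM in the Sham libraries. The groups did not overlap, and TAC library 4 was the highest (log2 fold change 1.82, SE 0.44, adjusted p = 0.00874). Col3a1, the chain of type III collagen found with type I in elastic tissue (ENSMUSG00000026043.18, chromosome 1, 45311538 to 45349706), had 1185, 568, 1743, 2284 and 771 CPM in the TAC libraries, against 279, 390.1, 382, 359.7 and 478 CPM in the Sham libraries. Again no TAC library reached down to the Sham libraries (log2 fold change 1.79, SE 0.48, adjusted p = 0.0133). Col5a2, a type V chain that sits inside type I fibres and helps start them, had 269, 128, 433, 649.6 and 180.4 CPM in the TAC libraries, against 53.6, 77.2, 67.4, 67.3 and 81.9 CPM in the Sham libraries. Its groups did not overlap, and it had the lowest adjusted p of the fibrillar chains (log2 fold change 2.26, SE 0.50, adjusted p = 0.00568). The call of Col3a1 was lost when TAC library 4 was left out, and that of Col1a1 when TAC library 3, TAC library 4 or Sham library 1 was. Both then kept a positive fold change.

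Col5a1, the other main type V chain, rose by less (log2 fold change 1.10, SE 0.39, adjusted p = 0.0445), and its call was lost when TAC library 1, 3 or 4 or any of Sham libraries 1 to 4 was left out. Col5a3, the type V chain of more limited tissues, had a log2 fold change of 0.54 and was not called (adjusted p = 0.116). Col11a1, a type XI chain best known from cartilage, had a high fold change from low levels, with 0.328 to 4.04 CPM in TAC against 0.0756 to 0.425 CPM in Sham (log2 fold change 3.59, SE 1.03, adjusted p = 0.0183). Its Sham values rest on 2 to 16 counts a library. Col11a2, its partner in cartilage, had 0.15 (adjusted p = 0.731). Col27a1, a cartilage chain, had 6.39, 3.55, 7.86, 8.41 and 6.09 CPM in TAC, against 2.65, 2.91, 2.94, 2.79 and 3.29 CPM in Sham. These groups did not overlap, yet the gene was not called (log2 fold change 1.15, SE 0.44, adjusted p = 0.0571). DESeq2 called it.

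**Figure D2:**
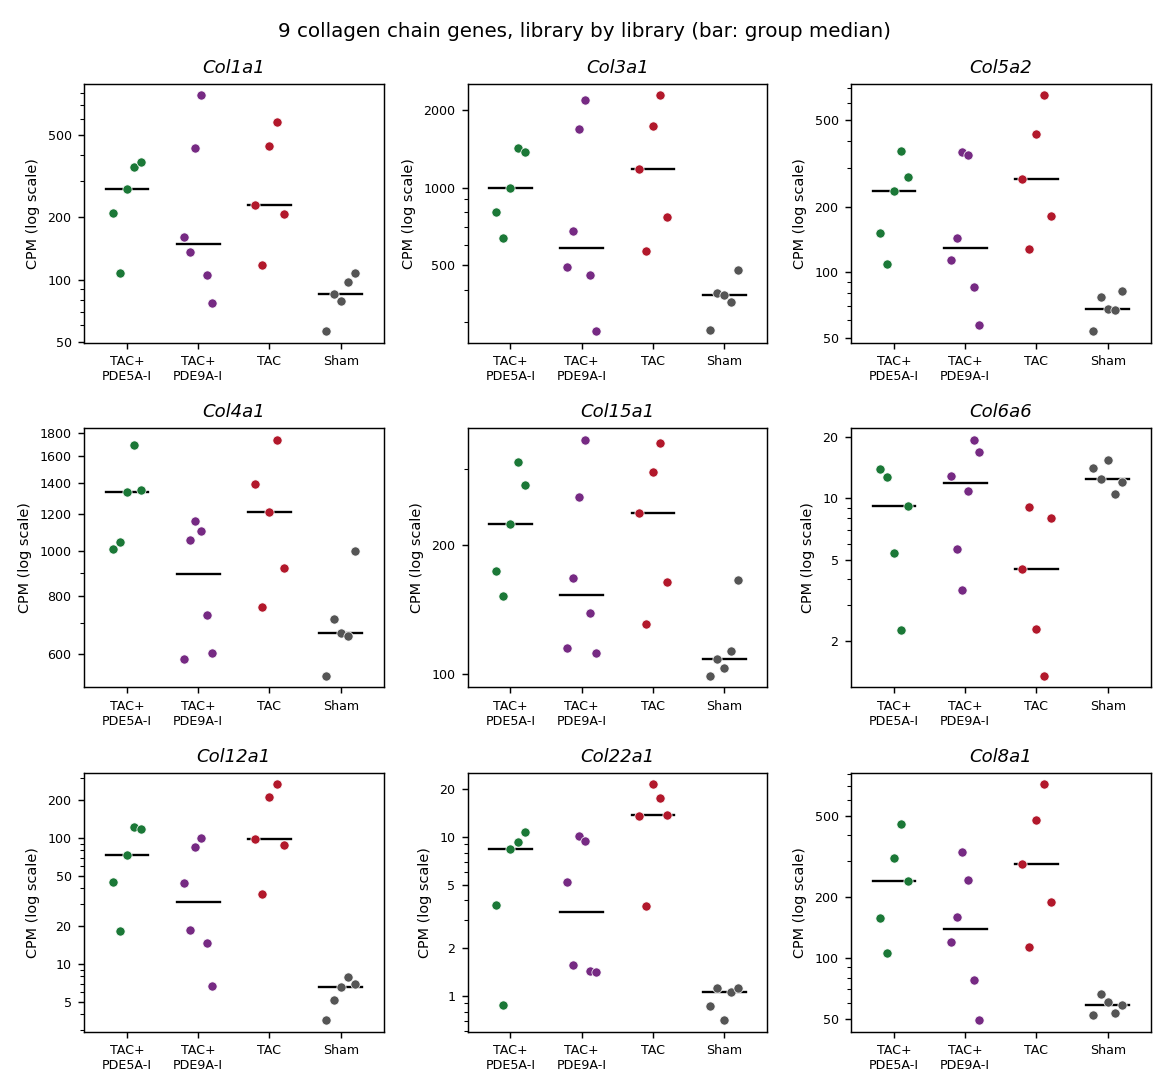
CPM on a log axis (y) for 9 collagen chain genes in each library, with the groups TAC+PDE5A-I, TAC+PDE9A-I, TAC and Sham from left to right. Each point is 1 animal and each bar the group median. Sham libraries lie close together for Col8a1, at 52.3 to 66.3 CPM, and less so for Col4a1, at 541 to 999.9 CPM. TAC+PDE9A-I libraries spread widely for Col1a1, at 77.1 to 781 CPM.

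Basement membrane chains rose by less than 1 log2 unit in 4 of 5 calls. Col4a1, with Col4a2 the type IV chains of nearly every basement membrane (ENSMUSG00000031502.11, chromosome 8, 11198423 to 11312826), had 1395, 759, 1213, 1735 and 919 CPM in the TAC libraries, against 540.7, 716, 668, 656 and 999.9 CPM in the Sham libraries. The groups overlapped, since TAC libraries 2 and 5 lay below Sham library 5 (log2 fold change 0.75, SE 0.24, adjusted p = 0.0270). Col4a2 (ENSMUSG00000031503.13, chromosome 8, 11312805 to 11449287) had 824, 472, 798, 1101 and 556 CPM in the TAC libraries, against 385, 451, 416, 452 and 591 CPM in the Sham libraries. TAC libraries 2 and 5 were again below the highest Sham library (log2 fold change 0.71, SE 0.22, adjusted p = 0.0263). Col4a5, a chain of the tighter network known from the kidney filter, had 104, 77.4, 129, 146 and 103 CPM in the TAC libraries, against 74.9, 77.9, 69.3, 69.8 and 81.9 CPM in the Sham libraries. TAC library 2 lay within the Sham range and the other TAC libraries above it (log2 fold change 0.58, SE 0.18, adjusted p = 0.0253). Col4a3 and Col4a4, the partners of Col4a5 in that network, rose by 1.53 (SE 0.49, adjusted p = 0.0296) and 0.98 (SE 0.31, adjusted p = 0.0275). Col4a6, which pairs with Col4a5 in smooth muscle, had 0.47 and was not called (adjusted p = 0.401). None of the 5 calls stood under all alternatives. Those of Col4a1, Col4a2, Col4a3 and Col4a4 were each lost when library 1, 3 or 4 of either group was left out, and that of Col4a5 when library 3 or 4 of either group was.

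FACIT chains do not form fibres and bind to their surface. Col12a1, a FACIT of tendon and of tissue under tension (ENSMUSG00000032332.17, chromosome 9, 79598991 to 79718831), had 97.9, 35.8, 213, 268 and 88.0 CPM in the TAC libraries, against 3.59, 5.15, 6.59, 7.91 and 6.93 CPM in the Sham libraries. The lowest TAC library was above 4 times the highest Sham library, and the gene had the highest fold change and the lowest adjusted p of the 36 (log2 fold change 4.53, SE 0.75, adjusted p = 0.00208). Col22a1, a FACIT known from the junction of muscle and tendon, had 13.5, 3.68, 21.4, 17.6 and 13.7 CPM in the TAC libraries, against 0.870, 1.12, 0.708, 1.06 and 1.12 CPM in the Sham libraries. The groups did not overlap (log2 fold change 3.83, SE 0.69, adjusted p = 0.00262). Col14a1, a close relative of Col12a1, rose by 1.90 (SE 0.46, adjusted p = 0.00836), with 58.5 to 136 CPM in TAC and 16.8 to 31.7 CPM in Sham. Col16a1, another FACIT, rose by 2.11 (SE 0.50, adjusted p = 0.00759). Col9a2, a type IX chain of cartilage, had 2.85, 0.225, 1.99, 3.61 and 0.753 CPM in TAC, against 0.0756, 0.175, 0.112, 0.265 and 0.194 CPM in Sham, the Sham values resting on 2 to 10 counts a library. Its groups overlapped through TAC library 2 (log2 fold change 3.46, SE 0.88, adjusted p = 0.0103). Col20a1 had -0.16 and was not called (adjusted p = 0.769).

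Network chains form lattices. Col8a1, the first chain of type VIII collagen, a lattice of vessel walls and the cornea (ENSMUSG00000068196.5, chromosome 16, 57624258 to 57754737), had 291, 113, 474, 713 and 188 CPM in the TAC libraries, against 52.3, 66.3, 60.8, 53.5 and 58.7 CPM in the Sham libraries. Its Sham libraries lay close together and all TAC libraries above them (log2 fold change 2.61, SE 0.52, adjusted p = 0.00367). Col8a2, the second chain, had 27.8, 15.6, 46.9, 39.1 and 20.4 CPM in the TAC libraries, against 0.719, 0.701, 1.19, 4.06 and 1.70 CPM in the Sham libraries. It too had no overlap, and TAC library 3 was the highest (log2 fold change 4.10, SE 0.90, adjusted p = 0.00556).

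Beaded filament chains form type VI collagen, which is built from Col6a1, Col6a2 and another chain. Col6a1 had 241, 134, 247, 285 and 180.0 CPM in the TAC libraries, against 97.9, 118, 113, 110.0 and 141 CPM in the Sham libraries. TAC library 2 lay within the Sham range and the other TAC libraries above it (log2 fold change 0.91, SE 0.27, adjusted p = 0.0195), and the call was lost without TAC library 4. Col6a2 had 148, 82.8, 172, 200.5 and 116 CPM in the TAC libraries, against 66.1, 81.8, 74.5, 82.0 and 105 CPM in the Sham libraries. TAC library 2 lay within the Sham range, and the gene was not called (log2 fold change 0.82, SE 0.30, adjusted p = 0.0534). Col6a3, the usual partner of both, had 0.47 and was not called (adjusted p = 0.127). Col6a6, a chain that can stand in for Col6a3, was looked at after its values were seen (ENSMUSG00000043719.14, chromosome 9, 105687809 to 105828160). It had 4.5, 9.12, 2.28, 1.35 and 8.05 CPM in the TAC libraries, against 14.1, 12.4, 15.4, 10.5 and 12 CPM in the Sham libraries. All TAC libraries were below all Sham libraries, the opposite order to the 11 chains in which every TAC library was above, but the gene was not called (log2 fold change -1.36, SE 0.51, adjusted p = 0.0565). DESeq2 called it as lower. Col6a5, another such chain, stayed at or below 0.674 CPM in both groups (adjusted p = 0.693).

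Multiplexins lie in the basement membrane zone. Col15a1 had 238, 130.4, 296, 345 and 163 CPM in the TAC libraries, against 99.0, 108, 103, 113 and 166 CPM in the Sham libraries. TAC libraries 2 and 5 lay below Sham library 5, which was itself far above the other Sham libraries (log2 fold change 0.99, SE 0.32, adjusted p = 0.0288). Leaving out TAC library 3 or 4, or any of Sham libraries 1 to 4, ended the call. Col18a1, whose cleavage releases the fragment endostatin, had 19.0, 11.2, 21, 30.6 and 15.5 CPM in the TAC libraries, against 8.4, 11.9, 8.34, 8.57 and 12.7 CPM in the Sham libraries. TAC library 2 lay within the Sham range and the other TAC libraries above it (log2 fold change 0.96, SE 0.24, adjusted p = 0.00965).

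Transmembrane chains span the cell membrane and were not called. Col25a1, known from motor nerve and muscle contact, had 0.618, 0.539, 0.225, 0.296 and 0.426 CPM in the TAC libraries, against 0.643, 0.771, 0.410, 0.478 and 0.813 CPM in the Sham libraries. The groups overlapped (log2 fold change -0.57, SE 0.35, adjusted p = 0.233). Col13a1, a chain of the nerve and muscle synapse, had 1.51, 1.12, 1.51, 1.48 and 1.24 CPM in the TAC libraries, against 1.29, 1.23, 1.08, 1.14 and 1.2 CPM in the Sham libraries. Its groups overlapped too (log2 fold change 0.21, adjusted p = 0.517). Col23a1 had 0.17 (adjusted p = 0.649). Of the remaining chains, Col7a1, the anchoring fibril chain of skin, had 0.653, 0.359, 1.64, 1.41 and 0.589 CPM in the TAC libraries, against 0.189, 0.420, 0.261, 0.478 and 0.619 CPM in the Sham libraries. It was below 2 CPM in every library, its groups overlapped, and it was called (log2 fold change 1.24, SE 0.42, adjusted p = 0.0364), a call lost when TAC library 3 or 4 or any of Sham libraries 1 to 4 was left out. Col26a1 had 0.687, 0.225, 0.289, 0.657 and 0.589 CPM in the TAC libraries, against 0.227, 0.210, 0.149, 0.372 and 0.194 CPM in the Sham libraries. The groups overlapped (log2 fold change 1.06, adjusted p = 0.249), and Col28a1 had 0.23 (adjusted p = 0.629).

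The 8 chains too low to test were Col2a1, Col24a1, Col19a1, Col9a1, Col9a3, Col10a1, Col6a4 and Col17a1. None had more than 14 counts in a library: Col24a1 reached 14, Col9a3 11, Col19a1 10, Col17a1 8, Col2a1 6, Col10a1 4, Col6a4 2 and Col9a1 2. Col9a1 was at 0 in 18 of the 21 libraries, and Col10a1 and Col6a4 in 17 each. A count of 0 allows up to 3 counts, counting error only. That is 0.0732 to 0.132 per M counts of the library total, without TMM scaling, depending on the library. Among them are the defining chains of cartilage, Col2a1 (type II) and Col10a1 (type X of its calcifying zone).

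Levels per length of merged exons (CPM per kb) put the chains on 1 scale. In TAC the order was Col4a1 at 161 ± 51.8, Col3a1 at 133 ± 71.9, Col4a2 at 113 ± 37.4, Col6a1 at 49.6 ± 13.7, Col1a2 at 48.5 ± 24.0, Col1a1 at 48.4 ± 29.2 and Col8a1 at 45.4 ± 30.8 CPM per kb (SD, n = 5). Neighbours in this order differed by less than their SDs, except Col4a2 and Col6a1. In Sham it was Col4a1 at 96.0 ± 22.9, Col4a2 at 69.4 ± 11.9, Col3a1 at 38.5 ± 7.26, Col6a1 at 26.5 ± 3.63, Col15a1 at 18.5 ± 4.30, Col1a2 at 13.8 ± 2.16 and Col1a1 at 12.9 ± 2.94 CPM per kb (SD, n = 5). Here neighbours differed by more than either SD, except Col1a2 and Col1a1. Per kb of the longest transcript instead, Col3a1 in TAC, at 235, stood above Col4a1, at 182, so the order of these chains depends on the length used. The summed fibrillar level divided by the summed basement membrane level was 0.730, 0.535, 0.715, 0.787 and 0.945 in TAC+PDE5A-I, 0.447 to 1.81 in TAC+PDE9A-I with library 4 the highest, 0.757, 0.672, 1.25, 1.19 and 0.8005 in TAC and 0.443, 0.490, 0.508, 0.507 and 0.456 in Sham. Every TAC library and every TAC+PDE5A-I library was above every Sham library. In TAC+PDE9A-I 5 of 6 libraries were above, and this ratio was not tested.

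**Figure D3:**
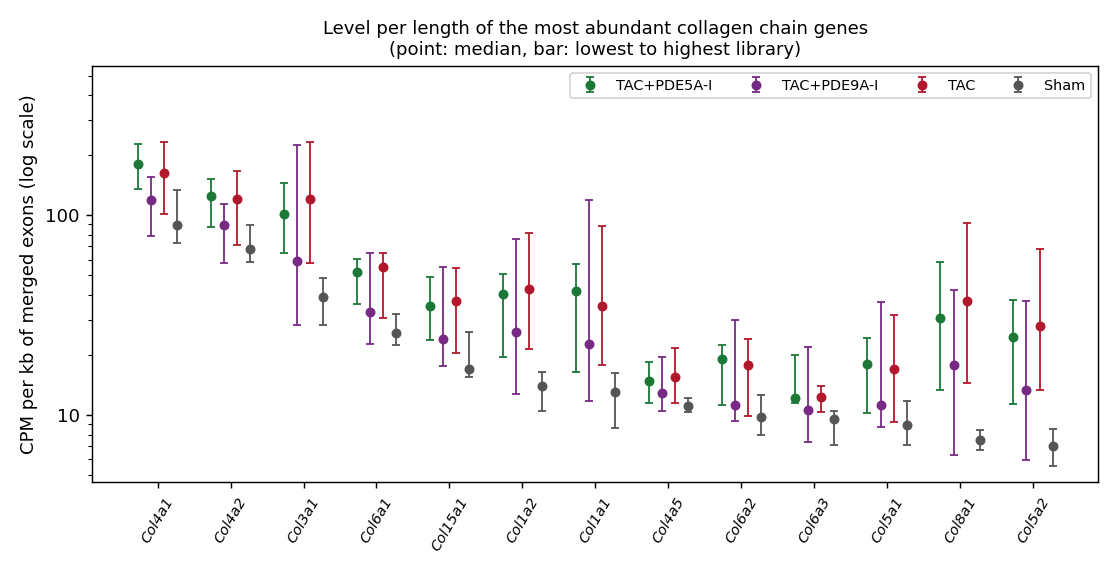
CPM per kb of merged exons (log axis) of the 13 most abundant collagen chain genes. Points are group medians and lines run from the lowest to the highest library, with TAC+PDE5A-I, TAC+PDE9A-I, TAC and Sham for each gene. Col4a1 averaged 161 CPM per kb in TAC and 96.0 in Sham.

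The genes that make and handle collagen were taken as 3 lists, to be read against the 12.2% of all genes called higher and 13.0% lower. Of 17 genes for chain modification and folding 4 rose and 1 fell in TAC against Sham. The prolyl 3-hydroxylase genes Leprel1 and Leprel2 rose by 1.799 (SE 0.31, edgeR adjusted p = 0.00221) and 1.13 (SE 0.26, edgeR adjusted p = 0.00656), and Leprel4, a related gene, fell by 0.71 (SE 0.14, edgeR adjusted p = 0.00363) on the log2 scale. The median of the 17 was 0.24. Of 14 genes for cleavage and cross-linking 10 rose and 3 fell, with a median of 1.02. The cross-linking oxidase genes Lox and Loxl3 rose by 3.49 (SE 0.75, edgeR adjusted p = 0.00503) and 2.75 (SE 0.54, edgeR adjusted p = 0.00367), and Adamts3, a procollagen N-proteinase, fell by 0.45 (SE 0.085, edgeR adjusted p = 0.00292) on the log2 scale. Of 9 receptor and uptake genes tested 2 rose, Itga11 (an integrin chain for fibrillar collagen) by 1.77 (SE 0.40, edgeR adjusted p = 0.00666) and Mrc2 (an uptake receptor) by 1.19 (SE 0.34, edgeR adjusted p = 0.0174). These lists were chosen with earlier results of these libraries known.

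Cell type markers are given against the same shares of all genes, 12.2% called higher and 13.0% lower. All 7 activated fibroblast markers rose, and their summed level was 677 to 4444 CPM in TAC and 122 to 186 CPM in Sham. Of these, Thbs4 rose by 4.51 (SE 0.73) and Postn, which encodes periostin, by 3.85 (SE 0.72). Of 8 resident fibroblast markers 6 rose, at a sum of 2756 to 3619 CPM in TAC and 2088 to 2546 CPM in Sham. Of 7 cardiomyocyte markers 3 fell, at 108287 to 160450 CPM in TAC and 155922 to 188132 CPM in Sham. Of 5 tested cartilage and tendon markers 3 rose, Tnmd, Acan and Scx, at a list sum of 11.05 to 28.8 CPM in TAC and 5.47 to 7.64 CPM in Sham, while Col2a1 stayed at or under 6 counts. Of 8 mural cell markers 2 rose and 1 fell (1064 to 1348 CPM in TAC, 1427 to 1625 CPM in Sham), and of 5 tested Schwann cell markers 3 fell (8.64 to 15.7 CPM in TAC, 10.2 to 14.9 CPM in Sham). None was called of 8 endothelial (879 to 1073 CPM in TAC, 941 to 1118 CPM in Sham), 4 endocardial (114 to 213 CPM in TAC, 79.6 to 155 CPM in Sham), 5 macrophage (210.1 to 249 CPM in TAC, 179.8 to 223 CPM in Sham), 5 erythroid (274 to 665 CPM in TAC, 386 to 1335 CPM in Sham), 1 tested mesothelial (1.99 to 4.24 CPM in TAC, 2.47 to 5.18 CPM in Sham) and 2 tested atrial markers (10.3 to 12.9 CPM in TAC, 9.46 to 12.2 CPM in Sham). The part of these cells in the collagen differences was not tested.

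**Figure D4:**
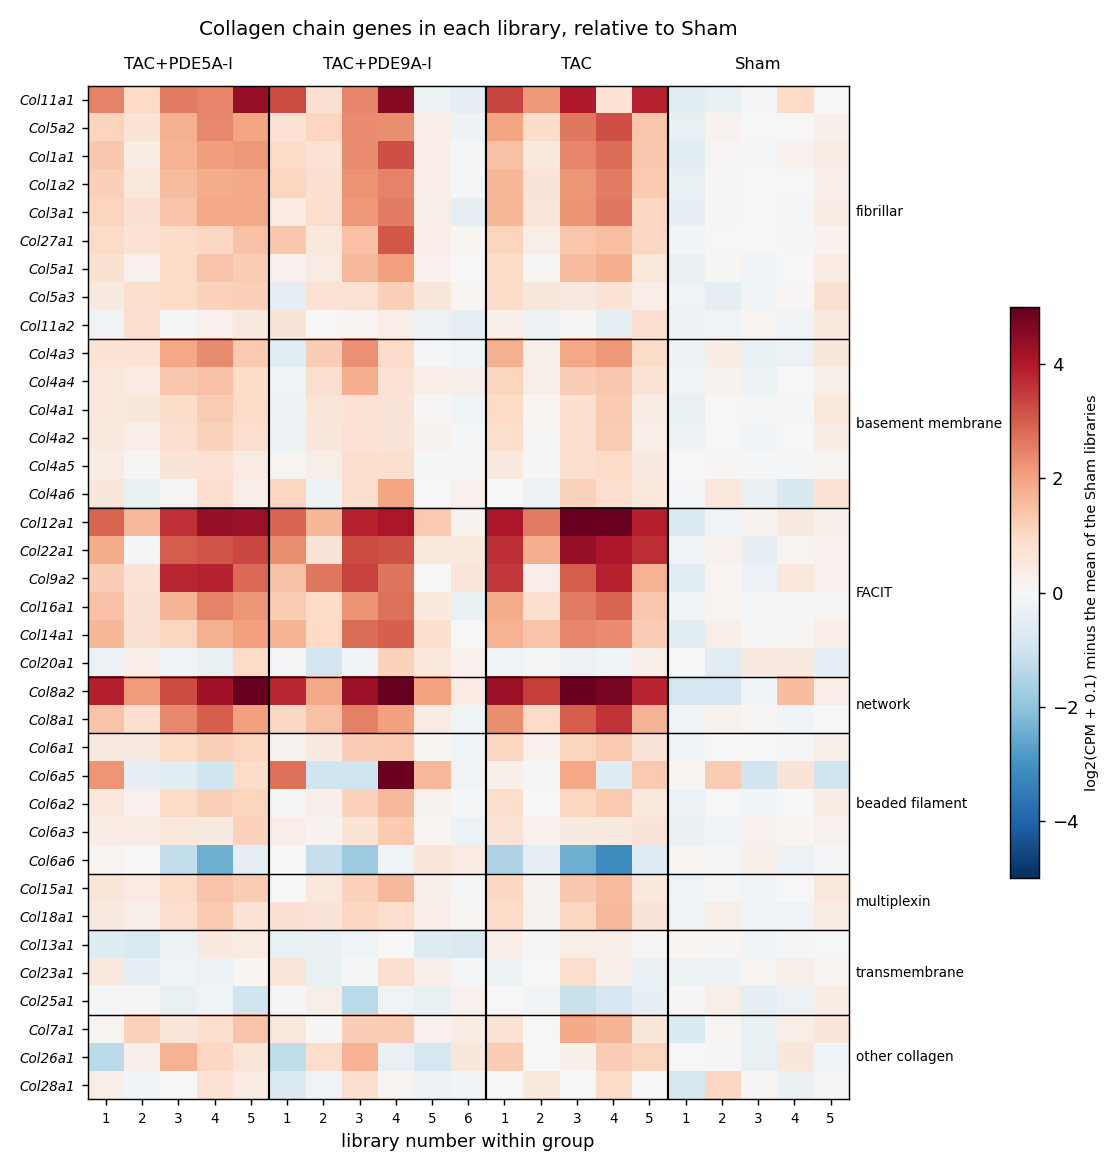
Heat map of log2(CPM + 0.1) minus the Sham mean for the 36 tested collagen chain genes (rows, by type) in all 21 libraries (columns, in the order TAC+PDE5A-I, TAC+PDE9A-I, TAC and Sham). Red is above and blue below the Sham mean. TAC+PDE9A-I libraries 3 and 4 are red over most rows. They have 27 and 30 of 36 genes above the highest Sham library, against 29.7 and 34.3% of all genes. Library 6 has 5 above (17.8% of all genes) and 5 below the lowest Sham library (17.7% of all genes).

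TAC+PDE5A-I against TAC asks what sildenafil changed under overload. None of the 36 genes was called by edgeR at an adjusted p under 0.05, and none of the 35 chains to which DESeq2 gave an adjusted p. Over all genes 0.0141% were called higher and 0.00% lower. Unadjusted, 0 of the 36 genes and 731 of all genes had a p under 0.05. No gene had its groups apart, against 0.389% of all genes above and 0.601% below. The median log2 fold change was -0.15, with 26 negative and 10 positive values. Col1a1 had 211, 108, 275, 349.5 and 373 CPM in TAC+PDE5A-I, against 231, 117, 446, 583 and 209 CPM in TAC. The groups overlapped, and TAC libraries 3 and 4 were the highest (log2 fold change -0.27, 95% interval -1.40 to 0.86). Col3a1 had 803, 634, 1000.02, 1432 and 1378 CPM in TAC+PDE5A-I, against 1185, 568, 1743, 2284 and 771 CPM in TAC. The TAC libraries held both the lowest and the highest value (log2 fold change -0.32, 95% interval -1.30 to 0.66). Col4a1 had 1013, 1046, 1343, 1691 and 1355 CPM in TAC+PDE5A-I, against 1395, 759, 1213, 1735 and 919 CPM in TAC. Again the groups overlapped (log2 fold change 0.10, 95% interval -0.39 to 0.59). Col12a1 had 44.8, 18.2, 73.4, 122 and 119 CPM in TAC+PDE5A-I, against 97.9, 35.8, 213, 268 and 88.0 CPM in TAC. TAC libraries 3 and 4 were above all TAC+PDE5A-I libraries, and the rest overlapped (log2 fold change -0.90, 95% interval -2.23 to 0.43). Col8a1 had 156.2, 105, 311, 458 and 239.5 CPM in TAC+PDE5A-I, against 291, 113, 474, 713 and 188 CPM in TAC (log2 fold change -0.49, 95% interval -1.51 to 0.53). Col6a6 had 13.9, 12.8, 5.36, 2.25 and 9.19 CPM in TAC+PDE5A-I, against 4.5, 9.12, 2.28, 1.35 and 8.05 CPM in TAC (log2 fold change 0.80, 95% interval -0.27 to 1.86). For both chains the groups overlapped. The intervals of Col1a1 and Col3a1 leave room for a fall of more than 1 log2 unit and for a rise of more than 0.5. Of the collagen handling lists, and of the fibroblast markers, no gene was called. Activated fibroblast markers summed to 481 to 2742 CPM in TAC+PDE5A-I and 677 to 4444 CPM in TAC. Within the 500s ear tags (2 libraries against 1) the median difference over the 36 genes was -1.004, and within the 600s (3 against 2) it was -0.014.

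TAC+PDE9A-I against TAC asks the same of PF-04449613. Again none of the 36 genes was called by edgeR, and none of the 24 chains to which DESeq2 gave an adjusted p, against 0.00% of all genes called higher and 0.00707% lower. Unadjusted, 5 of the 36 genes (Col13a1, Col22a1, Col12a1, Col6a6 and Col8a1) and 2061 of all genes had a p under 0.05. Groups were apart in no chain, against 0.198% of all genes above and 0.311% below. The median log2 fold change was -0.30, and 29 of 36 values were negative. Col12a1 had 6.66 to 101 CPM with a median of 31.3 CPM in TAC+PDE9A-I, against 97.9, 35.8, 213, 268 and 88.0 CPM in TAC. The groups overlapped (log2 fold change -1.64, 95% interval -2.92 to -0.36, edgeR adjusted p = 0.273). Col8a1 had 49.4 to 331 CPM with a median of 139 CPM in TAC+PDE9A-I, against 291, 113, 474, 713 and 188 CPM in TAC. TAC libraries 3 and 4 were above every TAC+PDE9A-I library (log2 fold change -1.13, 95% interval -2.10 to -0.15, edgeR adjusted p = 0.295). Col6a6 had 3.53 to 19.4 CPM with a median of 11.9 CPM in TAC+PDE9A-I, against 4.5, 9.12, 2.28, 1.35 and 8.05 CPM in TAC. Of the 6 TAC+PDE9A-I libraries 4 were above every TAC library (log2 fold change 1.2, 95% interval 0.16 to 2.24, edgeR adjusted p = 0.294). Col1a1 had 77.1 to 781 CPM with a median of 148 CPM in TAC+PDE9A-I, against 231, 117, 446, 583 and 209 CPM in TAC. TAC+PDE9A-I held the highest and the lowest library (log2 fold change -0.17, 95% interval -1.25 to 0.91). Col3a1 had 276 to 2197 CPM with a median of 583 CPM in TAC+PDE9A-I, against 1185, 568, 1743, 2284 and 771 CPM in TAC (log2 fold change -0.44, 95% interval -1.37 to 0.49). Col4a1 had 588 to 1160.0 CPM with a median of 894 CPM in TAC+PDE9A-I, against 1395, 759, 1213, 1735 and 919 CPM in TAC (log2 fold change -0.46, 95% interval -0.93 to 0.0064). For these chains too the groups overlapped. Without TAC+PDE9A-I libraries 1 and 4, an alternative chosen after the data were seen, the log2 fold change was -0.76 for Col1a1, -0.76 for Col3a1, -0.45 for Col4a1, -1.21 for Col8a1, -2.17 for Col12a1 and 1.17 for Col6a6 (edgeR adjusted p = 0.272 for Col12a1), and none of the 36 genes was called.

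The TAC+PDE9A-I libraries spread widely. Col1a1 was 160.0, 137, 433, 781, 105 and 77.1 CPM in libraries 1 to 6, and Col12a1 was 44.0, 18.5, 84.5, 101, 14.7 and 6.66 CPM in the same order. Libraries 3 and 4 were high and libraries 5 and 6 low in both. Activated fibroblast markers summed to 667, 672, 2215, 1822, 374 and 169 CPM in these libraries, so library 6 lay within the Sham range for this sum. No gene of the collagen handling lists or the fibroblast lists was called against TAC. Within ear tag series the median difference over the 36 genes was -0.20 in the 100s (1 against 2), -0.49 in the 500s (4 against 1) and -1.04 in the 600s (1 against 2).

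TAC+PDE5A-I against TAC+PDE9A-I sets the inhibitors side by side at doses that no source used here gives. None of the 36 genes was called by edgeR, and none of the 36 chains to which DESeq2 gave an adjusted p, against 0.00707% of all genes called higher and 0.00% lower. Unadjusted, 2 of the 36 genes (Col4a1 and Col6a5) and 1472 of all genes had a p under 0.05. Groups were apart in no chain, against 0.375% of all genes above and 0.382% below. The median log2 fold change was 0.19, with 26 positive values. Col4a1 had 1013, 1046, 1343, 1691 and 1355 CPM in TAC+PDE5A-I, against 588 to 1160.0 CPM with a median of 894 CPM in TAC+PDE9A-I. The groups overlapped, and 3 TAC+PDE5A-I libraries were above every TAC+PDE9A-I library (log2 fold change 0.56, 95% interval 0.093 to 1.03, edgeR adjusted p = 0.402). Col1a1 had a log2 fold change of -0.10 (95% interval -1.18 to 0.98). Col3a1 had 0.12 (95% interval -0.81 to 1.06), Col8a1 0.64 (95% interval -0.34 to 1.61), Col12a1 0.74 (95% interval -0.53 to 2.01) and Col6a6 -0.40 (95% interval -1.40 to 0.59). Without TAC+PDE9A-I libraries 1 and 4 the log2 fold change was 0.49 for Col1a1, 0.44 for Col3a1, 0.55 for Col4a1, 0.72 for Col8a1, 1.27 for Col12a1 and -0.37 for Col6a6, and none was called. Within the 500s ear tags (2 against 4) the median difference over the 36 genes was -0.40, and within the 600s (3 against 1) it was 1.11.

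Each inhibitor group was also set against Sham, with the same Sham libraries as above. In TAC+PDE5A-I against Sham 19 of 36 genes rose and none fell by edgeR, against 6.81% of all genes called higher and 7.80% lower. In 16 genes every TAC+PDE5A-I library was above every Sham library, against 6.81% of all genes, and in none below (8.75% of all genes). Of the FACIT chains, Col12a1 rose by 3.64 (SE 0.73, edgeR adjusted p = 0.00750), with the library values given above and no overlap. Col22a1 had 3.74, 0.886, 8.46, 9.35 and 10.7 CPM in TAC+PDE5A-I, against 0.870, 1.12, 0.708, 1.06 and 1.12 CPM in Sham. TAC+PDE5A-I library 2 lay within the Sham range (log2 fold change 2.75, SE 0.68). Col14a1 had 78.4, 42.2, 53.2, 86.2 and 103 CPM in TAC+PDE5A-I, against 16.8, 30.1, 22.9, 25.8 and 31.7 CPM in Sham. No library overlapped (log2 fold change 1.51, SE 0.45). Col16a1 had 33.3, 20.4, 39.0, 67.7 and 55.7 CPM in TAC+PDE5A-I, against 10.6, 13.0, 11.3, 12.6 and 12.4 CPM in Sham. Here too the groups were apart (log2 fold change 1.85, SE 0.49). Col9a2 had 0.495, 0.313, 3.39, 3.6 and 1.71 CPM in TAC+PDE5A-I, against 0.0756, 0.175, 0.112, 0.265 and 0.194 CPM in Sham. Every TAC+PDE5A-I library was above Sham, by little in libraries 1 and 2 (log2 fold change 3.45, SE 0.88). Of the network chains, Col8a2 had 21.4, 6.30, 13.6, 26.8 and 55.2 CPM in TAC+PDE5A-I, against 0.719, 0.701, 1.19, 4.06 and 1.70 CPM in Sham. TAC+PDE5A-I library 2 was the lowest of its group and still above Sham (log2 fold change 3.82, SE 0.89). Col8a1 rose by 2.12 (SE 0.51), also with no overlap.

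Of the fibrillar chains, Col1a2 had 387, 242, 504, 615 and 632 CPM in TAC+PDE5A-I, against 129.9, 178, 169, 173 and 205 CPM in Sham. The groups did not overlap (log2 fold change 1.48, SE 0.44). Col5a2 had 150.6, 109, 237, 361 and 274 CPM in TAC+PDE5A-I, against 53.6, 77.2, 67.4, 67.3 and 81.9 CPM in Sham. Again all TAC+PDE5A-I libraries were above Sham (log2 fold change 1.70, SE 0.49). Col3a1 rose by 1.47 (SE 0.48) without overlap. Col5a3 had 34.2, 43.2, 50.1, 55.1 and 57.8 CPM in TAC+PDE5A-I, against 21.7, 17.7, 22.6, 26 and 42.9 CPM in Sham. Sham library 5 reached into the TAC+PDE5A-I range (log2 fold change 0.88, SE 0.25). Col11a1 had 1.35, 0.417, 1.46, 1.33 and 5.23 CPM in TAC+PDE5A-I, against 0.0756, 0.105, 0.149, 0.425 and 0.155 CPM in Sham. TAC+PDE5A-I library 2 was just below the highest Sham library (log2 fold change 3.31, SE 1.03). Col1a1 was not called (log2 fold change 1.63, SE 0.56, edgeR adjusted p = 0.0533), although its groups did not overlap. Of the basement membrane chains, Col4a1 rose by 0.85 (SE 0.24), Sham library 5 lying just below the lowest TAC+PDE5A-I library. Col4a2 had 630.96, 575, 825, 1011 and 824 CPM in TAC+PDE5A-I, against 385, 451, 416, 452 and 591 CPM in Sham. TAC+PDE5A-I library 2 lay below Sham library 5 (log2 fold change 0.75, SE 0.22). Col4a3 had 13.5, 13.3, 32.1, 43.3 and 20.5 CPM in TAC+PDE5A-I, against 6.996, 10.7, 6.41, 6.77 and 12.2 CPM in Sham. Col4a4 had 17.8, 16.2, 31.5, 33.5 and 22.9 CPM in TAC+PDE5A-I, against 10.7, 13.7, 10.3, 12 and 15.1 CPM in Sham. In both the groups were apart (log2 fold change 1.51, SE 0.49 for Col4a3 and 0.98, SE 0.31, for Col4a4). Col6a1 had 158, 157.03, 228, 266 and 245 CPM in TAC+PDE5A-I, against 97.9, 118, 113, 110.0 and 141 CPM in Sham. All TAC+PDE5A-I libraries were above Sham (log2 fold change 0.86, SE 0.26). Col15a1 had 174, 152, 224, 312 and 275 CPM in TAC+PDE5A-I, against 99.0, 108, 103, 113 and 166 CPM in Sham. Col18a1 had 13.3, 11.8, 18.3, 24.4 and 15.8 CPM in TAC+PDE5A-I, against 8.4, 11.9, 8.34, 8.57 and 12.7 CPM in Sham. These multiplexins overlapped with Sham (log2 fold change 0.95, SE 0.32 for Col15a1 and 0.74, SE 0.24, for Col18a1). The count of 19 depended on single libraries, and the share of all genes called, 14.6% with every library, moved with it. The count was 3 without TAC+PDE5A-I library 4 (4.08% of all genes), 6 without library 5 (7.45%) and 7 without library 3 (6.69%). It was 5, 7, 6 and 6 without Sham libraries 1, 2, 3 and 4 (6.12, 8.48, 7.93 and 7.18%). With a model term for the ear tag series it was 1 (1.95%). Within the 600s ear tags (3 against 2) the median difference over the 36 genes was 0.98. All 7 activated fibroblast markers rose here too, at 481 to 2742 CPM in TAC+PDE5A-I and 122 to 186 CPM in Sham. Of the resident fibroblast markers 4 of 8 rose (2347 to 3571 CPM in TAC+PDE5A-I, 2088 to 2546 CPM in Sham), and of the tested cartilage and tendon markers 3 of 5 (7.81 to 30.2 CPM in TAC+PDE5A-I, 5.47 to 7.64 CPM in Sham). Of the cardiomyocyte markers 3 of 7 fell (119601 to 155361 CPM in TAC+PDE5A-I, 155922 to 188132 CPM in Sham). The part of these cells in the collagen differences was not tested here either.

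In TAC+PDE9A-I against Sham 4 of 36 genes rose and none fell by edgeR, against 2.17% of all genes called higher and 1.65% lower. Col8a2 rose by 3.84 (SE 0.88, edgeR adjusted p = 0.0286), with 1.8 to 88.8 CPM with a median of 12.8 CPM in TAC+PDE9A-I, against 0.719, 0.701, 1.19, 4.06 and 1.70 CPM in Sham. The lowest TAC+PDE9A-I library lay within the Sham range. Col12a1 rose by 2.89 (SE 0.70, edgeR adjusted p = 0.0317), with 6.66 to 101 CPM with a median of 31.3 CPM in TAC+PDE9A-I, against 3.59, 5.15, 6.59, 7.91 and 6.93 CPM in Sham. Col14a1 rose by 1.89 (SE 0.44, edgeR adjusted p = 0.0301), with 24.5 to 198 CPM with a median of 65.0 CPM in TAC+PDE9A-I, against 16.8, 30.1, 22.9, 25.8 and 31.7 CPM in Sham. In both genes library 6 lay within the Sham range and the other 5 above it. Col27a1 rose by 1.58 (SE 0.42, edgeR adjusted p = 0.0461), with 3.10 to 25.5 CPM with a median of 5.92 CPM in TAC+PDE9A-I, against 2.65, 2.91, 2.94, 2.79 and 3.29 CPM in Sham. Library 4 was far above the other 5 libraries, and library 6 lay within the Sham range. Col22a1 was the 1 gene with every TAC+PDE9A-I library above every Sham library (1.61% of all genes, and 0 chains below against 1.87%), with 1.42 to 10.1 CPM with a median of 3.40 CPM in TAC+PDE9A-I and 0.708 to 1.12 CPM in Sham. It was not called (log2 fold change 2.32, SE 0.67, edgeR adjusted p = 0.0529). The count of 4, beside 3.82% of all genes called, was 0 without TAC+PDE9A-I library 3 (0.205% of all genes), library 4 (0.291%) or libraries 1 and 4 together (0.127%), and without Sham library 1, 2 or 3 (0.514, 0.31 and 0.148%). It was 1 without Sham library 4 (0.619%), 2 without TAC+PDE9A-I library 1 (1.15%), and 9, 10 and 14 without TAC+PDE9A-I libraries 2, 5 and 6 (9.48, 6.32 and 12.8%). Of the activated fibroblast markers 3 of 7 rose (169 to 2215 CPM in TAC+PDE9A-I, 122 to 186 CPM in Sham), and of the resident fibroblast markers 2 of 8 (2592 to 4243 CPM in TAC+PDE9A-I, 2088 to 2546 CPM in Sham). Within ear tag series the median difference over the 36 genes was 0.61 in the 100s (1 against 3) and -0.24 in the 600s (1 against 2). A gene called in 1 of these comparisons and not in another is not thereby shown to differ between them.

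Ratios of partner or related chains within a library depend little on library scaling. For 6 such ratios, differences between groups were tested by two-sided exact permutation of libraries. The 6 ratios were chosen with earlier results of these libraries known, and adjustment over the 6 does not allow for that choice. Col12a1 divided by Col14a1, the FACIT chains that share the surface of type I fibres, was 1.178, 0.536, 1.57, 2.06 and 1.5 in TAC, against 0.215, 0.171, 0.288, 0.307 and 0.219 in Sham. No library overlapped (difference of mean log2 ratios 2.41, two-sided exact permutation p = 0.00794, adjusted p = 0.0476 over the 6 ratios). This p is the smallest that 5 against 5 libraries allow, and without any 1 Sham library the adjusted p was 0.0952. Within the 100s and the 600s ear tags the difference was 1.85 and 2.77.

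In TAC+PDE9A-I the same ratio was 0.551, 0.369, 0.494, 0.512, 0.344 and 0.272 in libraries 1 to 6, against 1.178, 0.536, 1.57, 2.06 and 1.5 in TAC. Of the 6 libraries 5 were below every TAC library, and library 1 was just above TAC library 2 (difference of mean log2 ratios -1.61, two-sided exact permutation p = 0.00433, adjusted p = 0.0260 over the 6 ratios). The differences within ear tag series were -0.53, -1.89 and -2.69 in the 100s, 500s and 600s. The adjusted p was 0.0286 without TAC library 2 and 0.0476 without TAC+PDE9A-I library 1. It was 0.0571 without TAC library 1, 3, 4 or 5 and 0.0952 without any 1 of TAC+PDE9A-I libraries 2 to 6. Without TAC+PDE9A-I libraries 1 and 4 the difference was -1.79 with an adjusted p of 0.0952. In TAC+PDE5A-I the ratio was 0.572, 0.431, 1.38, 1.42 and 1.15, against 1.178, 0.536, 1.57, 2.06 and 1.5 in TAC. The groups overlapped (difference of mean log2 ratios -0.49, two-sided exact permutation p = 0.262, adjusted p = 0.467 over the 6 ratios). Between the inhibitors the difference did not pass (difference of mean log2 ratios 1.11, two-sided exact permutation p = 0.0216, adjusted p = 0.0649 over the 6 ratios). Without TAC+PDE5A-I library 2 it was 1.37 with an adjusted p of 0.0286, and without TAC+PDE9A-I libraries 1 and 4 it was 1.298 with an adjusted p of 0.119. TAC libraries enter both tests against TAC, and TAC+PDE9A-I values were above the highest Sham ratio, 0.307, in 5 of 6 libraries.

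**Figure D5:**
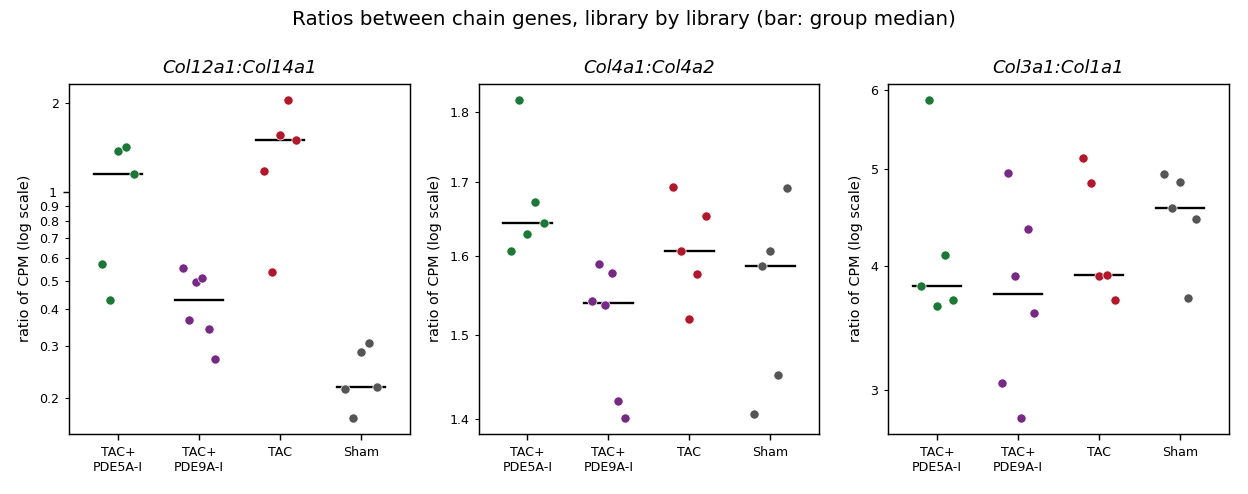
Ratio of CPM (log axis) of Col12a1 to Col14a1, Col4a1 to Col4a2 and Col3a1 to Col1a1 in each library, with TAC+PDE5A-I, TAC+PDE9A-I, TAC and Sham from left to right. Points are animals and bars medians. The Col12a1 to Col14a1 ratio is 0.536 to 2.06 in TAC, 0.272 to 0.551 in TAC+PDE9A-I and 0.171 to 0.307 in Sham.

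Col4a1 divided by Col4a2, the chains transcribed from opposite strands of 1 locus, was 1.61, 1.82, 1.63, 1.67 and 1.64 in TAC+PDE5A-I, against 1.54, 1.59, 1.54, 1.58, 1.42 and 1.40 in TAC+PDE9A-I. The groups did not overlap, although the difference is small (difference of mean log2 ratios 0.15, two-sided exact permutation p = 0.00433, adjusted p = 0.0260 over the 6 ratios), and without any 1 TAC+PDE5A-I library the adjusted p was 0.0571. Without TAC+PDE9A-I libraries 1 and 4 the difference was 0.17 with an adjusted p of 0.0476. The ratio was 1.52 to 1.69 in TAC and 1.41 to 1.69 in Sham, so each inhibitor range overlaps both, and no test against TAC passed (difference of mean log2 ratios 0.056, two-sided exact permutation p = 0.230, adjusted p = 0.467 over the 6 ratios for TAC+PDE5A-I; difference of mean log2 ratios -0.092, two-sided exact permutation p = 0.0736, adjusted p = 0.221 over the 6 ratios for TAC+PDE9A-I). Col1a1 divided by Col1a2 was 0.434 to 0.575 in TAC and 0.434 to 0.559 in Sham (difference of mean log2 ratios 0.030, two-sided exact permutation p = 0.770, adjusted p = 0.865 over the 6 ratios). Col3a1 divided by Col1a1 was 3.70 to 5.13 in TAC and 3.71 to 4.95 in Sham (difference of mean log2 ratios -0.075, two-sided exact permutation p = 0.508, adjusted p = 0.762 over the 6 ratios). Col6a1 divided by Col6a2 was 1.42 to 1.63 in TAC and 1.34 to 1.51 in Sham (difference of mean log2 ratios 0.10, two-sided exact permutation p = 0.111, adjusted p = 0.333 over the 6 ratios). Col15a1 divided by Col18a1 was 10.5 to 14.1 in TAC and 9.06 to 13.1 in Sham (difference of mean log2 ratios 0.023, two-sided exact permutation p = 0.865, adjusted p = 0.865 over the 6 ratios). None of these 4 ratios passed in any comparison made.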

How the data were processed

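Per the labels, the libraries are mRNA-seq, RNA came from flash-frozen left ventricle of C57BL/6J mice, and 500 ng of total RNA went into each stranded library. The authors deposited 1 table of expected counts by gene symbol, unscaled, 19.0% of them not whole. Per the submitters' processing notes, the tools were RSEM 1.3.0, HISAT2 2.0.5, CASAVA 1.8.4 and DESeq2 1.18.1, with no role named, and the build mm10. No source used here gives the strand setting or the annotation behind the symbols, so reads of overlapping genes may be split between them. Rows with a date for a symbol (27) named no gene here.

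Expected counts were rounded, filtered with filterByExpr by group (14135 of 24054 rows left), scaled by TMM and fitted in 1 model of all 21 libraries and 4 groups with edgeR 4.0.16 (glmQLFit, robust) in R 4.3.3. Benjamini-Hochberg adjustment ran over the 14135 genes, and "rose" and "fell" mean an adjusted p under 0.05. The test sets a group difference against the spread between animals, 1 library each, estimated per gene over all 4 groups. CPM are TMM-scaled. The fit was tested on simulated data for TAC against Sham over 14052 genes: it called 93 of 100 genes changed by 1 log2 unit and 100 of 100 changed by 2, with 11 false calls. The simulated spread depended only on a gene's level and was the same in all groups. The spread of the chains was not, with an SD of log2 CPM for Col1a1 of 0.355 in Sham and 0.921 in TAC. These rates therefore do not give the power for the collagen chains. Ratios used log2 CPM with a prior count of 0.5 and every regrouping of the libraries. DESeq2 1.42.0 was an alternative. No pair of libraries of the same group was alike within counting noise, and pairs across groups were not compared.

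The members, lists and tests were chosen with earlier results of these data known. In TAC against Sham, values in every library are given for Col1a1, Col1a2, Col3a1, Col4a1, Col4a2 and the 2 tested chains of each type with the lowest adjusted p. In the other comparisons they are given for chains called there and some of the same chains, as the lowest, median and highest in TAC+PDE9A-I. The others are given by fold change or range. The lists hold collagen modification, cleavage and receptor genes, and markers of cardiomyocytes, resident and activated fibroblasts, mural, endothelial, endocardial, Schwann, cartilage and tendon, macrophage, mesothelial, atrial and erythroid cells. Coordinates come from GENCODE M21 (GRCm38, the assembly that mm10 names) and promoters from RefSeq (GRCm38.p6).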

Additional observations from a re-analysis of the deposited data

Results flagged for a closer look

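Within groups, 6 values stood far from the others of their group, as the ratio of the gap to the whole range shows, among 104 groups of values examined. Chance flags about 1 group in 20. Col15a1 was 166 CPM in Sham library 5 and 99.0 to 113 CPM in the other Sham libraries. Col8a2 was 88.8 CPM in TAC+PDE9A-I library 4 and 1.8 to 28.3 CPM in the other 5. The ratio of Col1a1 to Col1a2 was 0.821 in TAC+PDE9A-I library 4 and 0.452 to 0.543 in the others. In TAC+PDE5A-I library 2 the ratio of Col3a1 to Col1a1 was 5.87, against 3.64 to 4.10 in the others of the group, and that of Col6a1 to Col6a2 was 1.69, against 1.34 to 1.44. The ratio of Col15a1 to Col18a1 was 17.4 in TAC+PDE5A-I library 5 and 12.2 to 13.0 in the others.

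A difference between the groups given different inhibitors was found for 1 ratio. The log2 ratio of Col4a1 to Col4a2 was 0.148 higher in TAC+PDE5A-I than in TAC+PDE9A-I by the two-sided exact permutation test (p = 0.00433, adjusted p = 0.0260 over 6 ratios), with every TAC+PDE5A-I library above every TAC+PDE9A-I library. It no longer passed when any 1 TAC+PDE5A-I library was left out, and neither inhibitor group passed against TAC for this ratio.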

How the results depend on the processing

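Shares in brackets are of all genes called under the same setting. In TAC against Sham the 22 calls (25.2%) became 21 to 25 (17.0 to 28.5%) with other size factors, no filter, DESeq2, only the 2 groups compared or the replicate block. They became 15 (19.0%) with a term for the ear tag series, and 11 to 25 (12.6 to 31.2%) when 1 library was left out. The counts with DESeq2, the 2 groups alone, the replicate block, or without TAC library 2 or 5 each include 1 lower gene. With the 2 groups alone, 20 of the 22 calls were kept. In TAC+PDE5A-I against Sham the 19 calls (14.6%) became 11 (8.67%) with no filter, 22 (11.3%) with DESeq2 and 25 (24.8%) with only the 2 groups compared. They became 24 (18.2%) with the replicate block, 1 (1.95%) with a term for the ear tag series, and 3 to 22 (4.08 to 16.0%) when 1 library was left out. In TAC+PDE9A-I against Sham the 4 calls (3.82%) became 2 (1.74%) with no filter, 14 (6.36%) with DESeq2, 0 (0.124%) with only the 2 groups compared, 16 (15.9%) with the replicate block, 0 (0.0424%) with the ear tag series, 0 (0.127%) without TAC+PDE9A-I libraries 1 and 4, and 0 to 14 (0.148 to 12.8%) when 1 library was left out. The cause was not tested. The other 3 comparisons kept 0 calls under every alternative run, the replicate block and each library left out among them. Whether replicate numbers pair the animals is not given. Correlations of deviations over the 30 same-numbered pairs ran from -0.225 to 0.564, with 8 above 0.1. Pairs with different numbers were not compared, so these values do not decide it, and replicate 6 has no partner.

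The ratios passing with 1 library left out numbered 0 or 1 in TAC against Sham, TAC+PDE9A-I against TAC and TAC+PDE5A-I against TAC+PDE9A-I, and 0 in TAC+PDE5A-I against TAC. Without TAC+PDE9A-I libraries 1 and 4, 0 passed in TAC+PDE9A-I against TAC, where Col1a1:Col1a2 differed by -0.012, and 1 passed in TAC+PDE5A-I against TAC+PDE9A-I, where Col3a1:Col1a1 differed by -0.0054. Signs of small values turned. With 1 library left out, log2 fold changes ran, in TAC against Sham, from -0.075 to 0.29 for Col23a1 and -0.11 to 0.30 for Col11a2. In TAC+PDE5A-I against TAC they ran from -0.026 to 0.27 for Col4a1 (-0.057 with the ear tag series) and -0.48 to 0.068 for Col1a1, and in TAC+PDE9A-I against TAC from -0.80 to 0.17 for Col1a1. In TAC+PDE5A-I against TAC+PDE9A-I they ran from -0.29 to 0.53 for Col1a1 (0.49 without TAC+PDE9A-I libraries 1 and 4, chosen after the data were seen) and -0.068 to 0.55 for Col3a1, and in TAC+PDE9A-I against Sham from -0.37 to 0.037 for Col6a6. Ratio differences ran from -0.020 to 0.081 (Col1a1:Col1a2) and -0.071 to 0.069 (Col15a1:Col18a1) in TAC against Sham, -0.16 to 0.030 (Col3a1:Col1a1) in TAC+PDE5A-I against TAC, -0.23 to 0.070 (Col15a1:Col18a1) and -0.039 to 0.14 (Col1a1:Col1a2) in TAC+PDE9A-I against TAC, and -0.034 to 0.14 (Col1a1:Col1a2) and -0.0023 to 0.10 (Col6a1:Col6a2) in TAC+PDE5A-I against TAC+PDE9A-I.

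The ear tag series are unevenly spread over the groups, with no TAC+PDE5A-I animal in the 100s and no Sham animal in the 500s, so series and group cannot be fully told apart. Depth limits the lowest chains: those with a few counts in Sham have fold changes that rest on those counts.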

Other observations

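Of the 36 tested collagen chain genes, the number above the highest Sham library differed between animals of 1 group. It was 26, 19, 27, 29 and 29 in TAC+PDE5A-I libraries 1 to 5, 20, 22, 27, 30, 13 and 5 in TAC+PDE9A-I libraries 1 to 6, and 28, 12, 29, 27 and 24 in TAC libraries 1 to 5. Over all genes tested the share above the highest Sham library was 21.5 to 31.2% in TAC+PDE5A-I, 17.8 to 34.3% in TAC+PDE9A-I and 23.2 to 34.3% in TAC. TAC library 2 and TAC+PDE9A-I library 6 were the lowest of their groups in this count and in the summed activated fibroblast markers, at 677 and 169 CPM.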
